A study of Mus musculus with 6 samples.

Results

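Voltage-gated and related ion channel genes were followed through the loss of RNF40 in mouse embryonic fibroblasts (MEFs), which are cells grown out of mouse embryos. RNF40 is part of the E3 ligase that attaches a single ubiquitin to histone H2B (H2Bub1). The genes were taken by symbol as every row of the table that names a pore or accessory subunit of a potassium channel (Kcn), a voltage-gated calcium channel (Cacna, Cacnb, Cacng) or a voltage-gated sodium channel (Scn), which gave 136 of 29955 rows. By type these were 40 pore and 12 accessory subunits of voltage-gated potassium channels, 8 pore and 4 accessory subunits of calcium- or sodium-activated potassium channels, 15 inward rectifiers and 14 two-pore-domain potassium channels. A further 10 were pores and 16 accessory subunits of voltage-gated calcium channels, and 11 were pores and 4 accessory subunits of voltage-gated sodium channels. The rule also took 2 genes that encode no channel subunit, namely the long non-coding RNA Kcnq1ot1 and the channel regulator Kcnrg.

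The MEFs came from embryos in which loxP sites flank exons 3 and 4 of Rnf40 and a tamoxifen-inducible Cre is expressed from the ubiquitous Rosa26 locus. The 3 Rnf40-/- libraries came from cells given 4-hydroxytamoxifen (4-OHT, 250 nM) over 5 days of culture, followed by 3 days off the drug, and the 3 Rnf40+/+ libraries from cells called wild-type. All 6 were at passage 3. The sources used here do not say whether Rnf40+/+ cells received 4-OHT, so that deletion and treatment cannot be told apart, nor whether replicates came from separate embryos, so that p-values measure only the spread between these libraries. Values are reads per gene divided by the size factor of the library, called normalized counts, and the libraries held between 17053436 and 26344170 reads on genes.

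An ion channel is built around pore subunits, whose protein forms the path for the ion, and many channels also carry accessory subunits that set how many channels reach the membrane and how they open and close. Voltage-gated potassium channels bring a depolarized membrane back to rest, inward rectifiers and two-pore-domain channels hold the resting potential, and voltage-gated sodium and calcium channels carry current into the cell. Fibroblasts do not normally fire action potentials, and potassium channels set their membrane potential.

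The label check came first. Rnf40 stood at 1278, 1195 and 1096 normalized counts in Rnf40+/+ and at 439, 519 and 487 in Rnf40-/- libraries, a log2 fold change of -1.30 ± 0.09 (SE), and 40.5% of its mean level remained. Fibroblast markers were high in all libraries, with a summed level of 691563 to 772831 normalized counts for 10 genes in Rnf40+/+ and 405176 to 407754 in Rnf40-/-, and 9 of the 10 fell. The 5 smooth muscle markers (Acta2, Myh11, Cnn1, Des, Smtn) all fell, from a sum of 104692 to 118076 to a sum of 19532 to 23812. Of 9 neuronal markers in the table, 2 rose (Stmn2 and Slc17a6) and 6 had too few reads to be tested, with Rbfox3 and Gad1 at no more than 4.72 normalized counts. Of the 9 striated muscle markers 6 had too few reads to be tested and 3 were tested but not called, and Myod1 was at 0 in all libraries. Of 6 glial markers S100b rose and 2 were not tested. Of 5 macrophage markers Ptprc rose and Lyz2 fell, and of 4 epithelial markers 3 were not tested and 1 was not called. Pecam1, Cdh5 and Kdr of 5 endothelial markers rose, Emcn fell, and the list summed to 138 to 279 in Rnf40+/+ and 225 to 315 in Rnf40-/-. In bulk RNA, fewer cells of a type and less RNA per cell cannot be told apart.

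Replicate 1 of Rnf40+/+ stood apart before any comparison. In this library 249 of 29955 genes had at least 10 normalized counts and over 3 times the higher value of the other two libraries of its genotype, where the remaining 5 libraries had between 20 and 84 such genes. Among the channel genes there were 6: Kcnma1, Scn8a, Scn3a, Kcnh3, Kcnq3 and Cacna1e. The same library held the highest Rnf40+/+ levels of the neuronal markers Syt1 (115 normalized counts, with 2.04 and 0.80 in the others), Snap25 (39.4, with 2.04 and 3.99) and Tubb3 (2670, with 1275 and 1353) and of Des (431, with 126 and 114). Of the other neuronal markers, Slc17a6 (8.36, with 19.4 and 18.4) was lowest in it and Stmn2 lay between the others, so neither shared this. Elavl3, Elavl4, Rbfox3 and Gad1 were not tested and had at most 13 reads in any Rnf40+/+ library, too few to rank. Markers of other cell types also stood out in it, namely Tek (115, with 11.2 and 16.0), Krt8 (58.5, with 1.02 and 9.58) and Ttn (83.6, with 19.4 and 13.6). Kdr, Krt18 and Tnnt2, of the same lists, did not. The part of these genes in the channel results was not tested, and results that turn on this library are given with and without it. Without it, Kcnh3 (log2 fold change 1.99, adjusted p = 0.0317), Kcnip4 (1.93, adjusted p = 0.0368) and Kcns3 (-1.41, adjusted p = 0.0463) were called, which with all libraries they were not (1.12, 1.40 and -1.21, adjusted p = 0.25, 0.12 and 0.060). The calls of Cacna1b, Kcnd1, Kcnj2 and Scn2a1 were lost without it (adjusted p = 0.0624, 0.119, 0.138 and 0.108).

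Many channel genes had few reads. No library held a read of 15 of the 136 (11.0%, beside 24.7% of all rows), a further 21 had at most 3 reads in each library, and 61 passed the filter for testing (44.9%, beside 54.7% of all rows). Of the 75 not tested, 60 stayed under 10 normalized counts in every library. When values were divided by the length of the longest transcript, to allow genes to be compared, accessory subunits of calcium and voltage-gated potassium channels stood above their pores. Accessory calcium channel subunits summed to 1108 ± 17.6 normalized counts per kb in Rnf40+/+ (SD, n = 3), led by Cacnb3 with 51.2% and then Cacng7 with 20.8%. Types were set by symbol, and whether the Cacng products act on calcium channels in these cells was not tested. Calcium channel pores were lower, at 247 ± 10.3 per kb, and sodium channel pores were at 13.6 ± 6.46 per kb. Voltage-gated potassium channels showed the same order, with 414 ± 17.9 per kb for accessory subunits and 149 ± 16.7 per kb for pores.

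**Figure D1:**
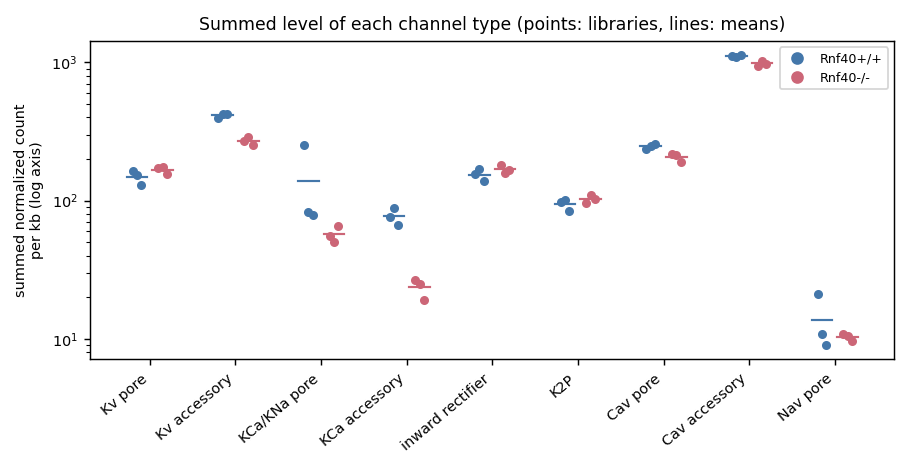
Sum over the genes of each of 9 channel types of normalized counts per kb of transcript (vertical log axis), with 1 point per library and a line at the mean of the 3 Rnf40+/+ (blue) or Rnf40-/- (red) libraries; K2P stands for two-pore-domain and KCa/KNa for calcium- or sodium-activated potassium channels. Accessory subunits of potassium channels lie lower in every Rnf40-/- library, and 1 Rnf40+/+ library stands alone for KCa/KNa pores and Nav pores.

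Between genotypes, the summed level of 5 of these types separated without overlap, each lower in Rnf40-/-. The accessory subunits of calcium-activated potassium channels (the Kcnmb genes) stood farthest apart, at 76.4, 88.9 and 66.9 normalized counts per kb in Rnf40+/+ and at 26.8, 25.0 and 19.2 in Rnf40-/- libraries. Accessory subunits of voltage-gated potassium channels stood at 393, 425 and 423 against 268, 290 and 253. Calcium channel pores (237 to 258 against 191 to 218) and their accessory subunits (1091 to 1127 against 948 to 1027) were closer, and pores of calcium- or sodium-activated potassium channels were at 78.6 to 253 against 50.4 to 65.9. Sums of inward rectifiers, two-pore-domain channels, voltage-gated potassium pores and sodium channel pores overlapped. The sums are weighted towards their most abundant genes and do not show that a whole type fell. Kcnmb1 made up 70.9% of its sum in Rnf40+/+ and 19.4% in Rnf40-/-. Per kb by the means, Kcne4 went from 169 to 61.7, Cacnb3 from 567 to 436 and Cacna1g from 104 to 50.3. Within the calcium types, 2 pores were called higher and 2 lower, and 3 accessory subunits higher and 2 lower.

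Gene by gene, 15 of the 61 channel genes tested were higher in Rnf40-/- (24.6%, beside 23.3% of all 16378 genes tested) and 13 were lower (21.3%, beside 24.1%). As a class, channel genes were thus called about as often as genes in general, and 33 were not called. With a minimum log2 fold change of 1 in either direction, 7 were higher (11.5%, beside 5.13% of all genes) and 5 were lower (8.20%, beside 5.72%). The median log2 fold change was 0.12 for channel genes and -0.0035 for all genes (for channel genes -0.020 with a mean above 15 and -0.022 without replicate 1 of Rnf40-/-), and the median size of the change was 0.66 against 0.33. Channel genes tested were also lower than genes in general, with a median of 40.1 against 347 normalized counts in Rnf40+/+. The called genes were spread over the types: 7 higher and 8 lower of 38 potassium channel genes, 5 and 4 of 17 calcium channel genes, and 2 and 1 of 5 sodium channel genes. Without replicate 1 of Rnf40+/+, 17 channel genes were higher and 11 lower, and the lowest counts came without replicate 1 or without replicate 2 of Rnf40-/-, each with 12 higher and 10 lower. Without replicate 3 of Rnf40-/-, 3 rather than 5 genes were lower by a log2 fold change of over 1.

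**Figure D2:**
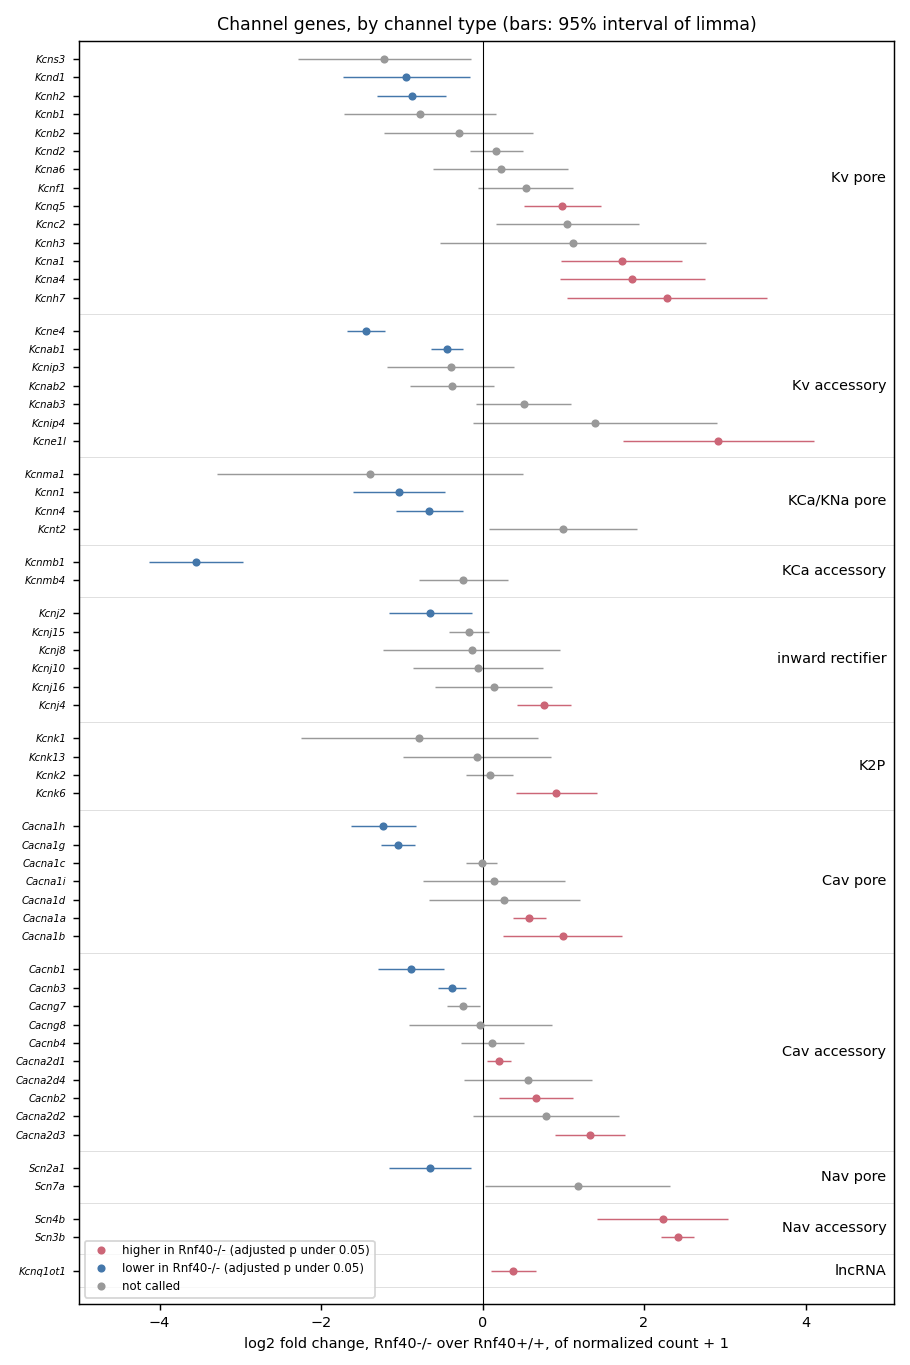
Log2 fold change of 59 channel genes (horizontal axis, Rnf40-/- over Rnf40+/+, on normalized count + 1) with its 95% interval from limma, grouped by type; red genes were higher (15), blue genes lower (13) and grey genes not called. Both directions occur within most types, Kcnmb1 lies farthest to the left and Kcne1l farthest to the right.

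The 12 genes with the larger changes did not overlap between genotypes, as was the case for 32 of the 61 channel genes tested (52.5%) and for 56.5% of all genes tested. RefSeq promoter windows (GRCm38.p6) were on hand for 8 of the 12 genes (all but Cacna1g, Cacna1h, Kcna1 and Scn3b). The sequences shown are the 250 bases before the transcription start of the genes with the largest falls and the largest rises that have 1 window each, written 5′ to 3′ with each CG in capitals. Kcnmb1 lies on the + strand at chr11:33962763-33963012, Kcne4 on the + strand at chr1:78816661-78816910, Kcnh7 on the - strand at chr2:63184288-63184537 and Kcne1l on the - strand at chrX:142306199-142306448.
Kcnmb1: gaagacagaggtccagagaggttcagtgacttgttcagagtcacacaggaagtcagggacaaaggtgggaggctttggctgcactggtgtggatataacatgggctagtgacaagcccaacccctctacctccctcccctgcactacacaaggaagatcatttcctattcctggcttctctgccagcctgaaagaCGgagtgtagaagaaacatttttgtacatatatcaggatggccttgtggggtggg
Kcne4: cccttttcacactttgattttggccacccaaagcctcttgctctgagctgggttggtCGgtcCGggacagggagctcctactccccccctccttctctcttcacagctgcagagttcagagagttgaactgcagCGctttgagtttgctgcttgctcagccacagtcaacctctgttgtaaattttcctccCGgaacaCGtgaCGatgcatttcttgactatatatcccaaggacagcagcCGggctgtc
Kcnh7: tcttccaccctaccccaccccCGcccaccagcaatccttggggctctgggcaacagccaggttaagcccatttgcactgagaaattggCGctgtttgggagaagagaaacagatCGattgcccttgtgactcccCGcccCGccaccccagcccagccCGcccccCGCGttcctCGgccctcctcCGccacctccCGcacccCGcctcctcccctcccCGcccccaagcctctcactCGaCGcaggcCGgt
Kcne1l: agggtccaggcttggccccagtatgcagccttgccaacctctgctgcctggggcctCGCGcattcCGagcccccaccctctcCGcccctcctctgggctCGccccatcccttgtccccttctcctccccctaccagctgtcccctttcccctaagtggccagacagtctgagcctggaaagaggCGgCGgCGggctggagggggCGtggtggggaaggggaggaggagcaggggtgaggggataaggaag
The letters CG, which read the same on both strands, occurred 1 time before Kcnmb1, 7 times before Kcne4, 16 times before Kcnh7 and 9 times before Kcne1l. At most 1 CG was found in 18.8% of all 32851 windows of this length, whose median was 6. Of the others, Kcna4, Scn4b and Cacna2d3, which rose, held 14, 23 and 30, and the 2 windows of Kcnn1, which fell, held 8 and 10. The counts of genes that fell (1 to 10) and rose (9 to 30) thus overlapped. Over all called channel genes with a window, the median was 16 in the 13 windows of 11 genes that rose and 6.5 in the 14 windows of 9 genes that fell. These are counts of letters and give no methylation or binding.

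**Figure D3:**
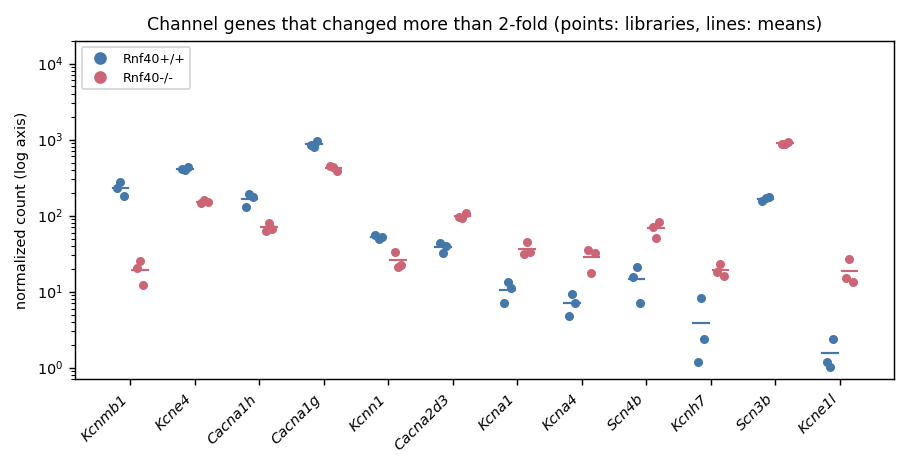
Normalized counts (vertical log axis) of the 12 channel genes that changed by a log2 fold change of over 1, in 3 Rnf40+/+ (blue) and 3 Rnf40-/- (red) libraries with lines at the means. The 5 genes on the left fell and the 7 on the right rose, and in each the points of the genotypes are separate; Kcne1l rests on 1 to 3 reads per Rnf40+/+ library.

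Among called channel genes, the largest fall (Kcnmb1) and the largest rise (Kcne1l, from few reads in Rnf40+/+) were each in a potassium channel accessory subunit. Kcnmb1 (chr11:33863013-33873641 on mm9) encodes the beta subunit that raises the calcium sensitivity of the large-conductance BK channel in smooth muscle. It stood at 229, 280 and 180 normalized counts in Rnf40+/+ and at 20.4, 25.0 and 12.3 in Rnf40-/- libraries. The genotypes lay far apart, 12.0-fold by the means, with a log2 fold change of -3.54 ± 0.27 (SE, adjusted p = 8.55e-07) that ranged from -3.75 to -3.04 over all alternatives. The smooth muscle markers given above moved with it, with Cnn1 at 3855 to 4856 in Rnf40+/+ and 263 to 286 in Rnf40-/-, and their part in the fall of Kcnmb1 was not tested. Kcnmb4, the beta subunit best known from brain, was at 34.6 to 38.3 and 26.4 to 35.7 and was not called.

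Kcne4 (chr1:78813502-78816599) encodes a single-span subunit that inhibits several voltage-gated potassium channels. It fell from 414, 395 and 440 to 147, 160 and 149 normalized counts, 2.74-fold by the means (log2 fold change -1.45 ± 0.11, adjusted p = 7.60e-07). The replicates lay close together in both genotypes. Its relative Kcne1l (also called Kcne5, chrX:138739295-138740837) went the other way, from 1.19, 1.02 and 2.40 to 15.3, 27.1 and 13.2. This rests on 5 reads over the 3 Rnf40+/+ libraries and 55 over the 3 Rnf40-/- libraries, a ratio of 11.3 with an exact 95% interval of 4.55 to 36.1 for counting error (log2 fold change 2.92 ± 0.54, adjusted p = 8.67e-04). Kcnab1, a cytoplasmic beta subunit and the accessory subunit of voltage-gated potassium channels with the highest level per kb (192 in Rnf40+/+), fell moderately from 739, 933 and 847 to 626, 628 and 592 (log2 fold change -0.44 ± 0.09, adjusted p = 0.0020). Kcnab2, Kcnab3, Kcnip3 and Kcnip4 were not called with all libraries. Kcnip4 was called without replicate 1 of Rnf40+/+, and Kcnab2 without replicate 2 of Rnf40+/+.

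Among pores of voltage-gated potassium channels, 15 of 40 genes were tested, 4 rose and 2 fell. The 3 larger rises were all in genes that were low in Rnf40+/+. Kcna1 (chr6:126586481-126595819), a Shaker-type channel of axons, stood at 7.17, 13.3 and 11.2 normalized counts in Rnf40+/+ and at 31.6, 44.9 and 33.0 in Rnf40-/- (log2 fold change 1.72 ± 0.34, adjusted p = 0.0015). Kcna4 (chr2:107130796-107138659), a rapidly inactivating channel of the same family, stood at 4.78, 9.18 and 7.19 against 35.7, 17.7 and 32.1 (1.85 ± 0.41, adjusted p = 0.0029). The lowest Rnf40-/- library of Kcna4 was replicate 2, which still exceeded every Rnf40+/+ library. Kcnh7 (chr2:62531471-63022344), of the ether-a-go-go related family, stood at 1.19, 8.16 and 2.40 against 18.4, 23.0 and 16.1 (2.29 ± 0.57, adjusted p = 0.0056). It had 1 to 8 reads in Rnf40+/+ libraries, and its exons share 696 bases with Gca on the other strand. Its better known relative Kcnh2, which repolarizes the heart, moved in the opposite direction, from 82.4, 76.5 and 68.7 to 40.8, 40.7 and 40.6 (-0.88 ± 0.20, adjusted p = 0.0031). Kcnq5, an M-current channel, rose and Kcnd1 fell with log2 fold changes of 0.99 and -0.94, and the call of Kcnd1 was lost without replicate 1 or 3 of Rnf40+/+ and without any of the Rnf40-/- libraries. Kcnd2, an A-type channel with the highest level per kb among these pores (34.1 in Rnf40+/+), was at 144 to 197 and 174 to 214 and was not called.

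Of 4 pores of calcium- or sodium-activated potassium channels tested, 2 fell, and Kcnma1 and Kcnt2 were not called. Kcnt2 lay in the direction of a rise and was called only without replicate 3 of Rnf40+/+. Kcnn1 (chr8:73365948-73380907), a small-conductance channel, stood at 56.1, 49.97 and 51.9 normalized counts in Rnf40+/+ and at 33.6, 20.9 and 22.7 in Rnf40-/- (log2 fold change -1.03 ± 0.26, adjusted p = 0.0063). Kcnn4, the intermediate-conductance channel known from fibroblasts and lymphocytes, fell from 115, 118 and 99.0 to 60.2, 63.7 and 87.8 (-0.66 ± 0.19, adjusted p = 0.014). The groups were separate for both genes, although the call of Kcnn4 was lost without replicate 2 of Rnf40+/+ and without replicate 1 or 2 of Rnf40-/-. Kcnma1 (chr14:24117983-24622526), the pore of the BK channel with which Kcnmb1 assembles, showed the largest disagreement between replicates. It stood at 797, 33.7 and 44.7 in Rnf40+/+ and at 46.9, 29.2 and 47.2 in Rnf40-/-. The mean of Rnf40+/+ therefore came from replicate 1 alone, and the groups overlapped. The log2 fold change of -1.39 ± 0.87 did not pass the test (adjusted p = 0.21), and it was 0.049 without that library (adjusted p = 0.91). Kcnmb1 did not share this, since replicate 1 lay between the other Rnf40+/+ libraries, and without that replicate the pores of this type summed to 82.5 and 78.6 per kb in Rnf40+/+ and to 50.4 to 65.9 in Rnf40-/-.

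**Figure D4:**
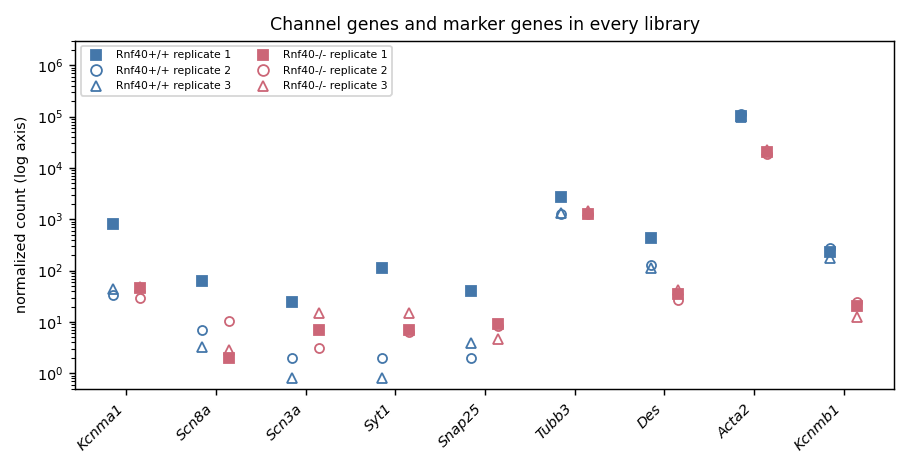
Normalized counts (vertical log axis) of channel genes and marker genes in each library, with filled squares for replicate 1, open circles for replicate 2 and open triangles for replicate 3 of Rnf40+/+ (blue) and Rnf40-/- (red). Replicate 1 of Rnf40+/+ lies above all others for Kcnma1, Scn8a, Scn3a, Syt1, Snap25, Tubb3 and Des, but not for Acta2 or Kcnmb1.

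Among channels that hold the resting potential, 2 of 6 inward rectifiers and 1 of 4 two-pore-domain channels tested were called. Of the inward rectifiers, Kcnj4 rose from 87.2, 117 and 105 to 183, 160 and 182 normalized counts (log2 fold change 0.76 ± 0.16, adjusted p = 0.0017) and Kcnj2, the classical strong rectifier, fell with a log2 fold change of -0.65 ± 0.24 (adjusted p = 0.041). The genotypes overlapped for Kcnj2, and its call was lost without any 1 library other than replicate 3 of Rnf40+/+. Kcnj15, the inward rectifier with the highest level per kb in Rnf40+/+ (59.3), was at 293 to 383 and 295 to 304 and was not called. Of the two-pore-domain channels, Kcnk6 rose from 29.9, 37.7 and 30.3 to 55.1, 60.5 and 71.8 (0.91 ± 0.23, adjusted p = 0.0059). Kcnk2, the mechanosensitive channel that made up 67.7% of the signal of the type per kb in Rnf40+/+, was at 190 to 251 and 228 to 259, with a log2 fold change of 0.087 and a 95% interval of -0.20 to 0.37.

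Of 7 calcium channel pores tested, 2 fell and 2 rose. T-type channels open at low voltage, and Cacna1g and Cacna1h, which encode 2 of the 3 T-type pores, fell. Cacna1g (chr11:94269705-94335414), the calcium channel pore with the highest level per kb in Rnf40+/+ (104), went from 853, 806 and 969 to 448, 435 and 382 normalized counts (log2 fold change -1.05 ± 0.10, adjusted p = 4.10e-06). Cacna1h (chr17:25511230-25570728) went from 131, 194 and 175 to 63.2, 79.3 and 67.0 (-1.23 ± 0.18, adjusted p = 1.82e-04), and its exons share 158 bases with Tpsg1 on the other strand. The third, Cacna1i, was at 12.0 to 22.7 and 11.3 to 26.5 and was not called. The P/Q-type pore Cacna1a (chr8:86912339-87164145), a channel of nerve terminals, rose from 383, 403 and 367 to 591, 621 and 517 (0.58 ± 0.10, adjusted p = 3.85e-04). It became the leading calcium pore per kb in Rnf40-/-, with 35.0% of the sum. The N-type pore Cacna1b rose from 15.5, 13.3 and 29.5 to 44.9, 33.4 and 34.9 (0.99 ± 0.34, adjusted p = 0.030), and its call was lost without replicate 1 or 2 of Rnf40+/+ and without any of the Rnf40-/- libraries. Cacna1c, the L-type pore of heart and smooth muscle, was at 496 to 541 and 486 to 551, a log2 fold change of -0.012 with a 95% interval of -0.20 to 0.18.

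Accessory calcium channel subunits also moved in both directions, with 3 of 10 higher and 2 lower. Cacna2d3 (chr14:29718133-30535050), an alpha2delta subunit of the nervous system that carries channels to the membrane, stood at 44.2, 32.6 and 39.9 normalized counts in Rnf40+/+ and at 96.9, 92.9 and 107 in Rnf40-/- (log2 fold change 1.33 ± 0.20, adjusted p = 1.98e-04). Cacna2d1, of the same family and far more abundant, rose only from 1473 to 1633 to 1710 to 1882 (0.20 ± 0.07, adjusted p = 0.032). Among the beta subunits, which bind the pore inside the cell, Cacnb3 fell from 1547, 1505 and 1746 to 1158, 1253 and 1274 (-0.38 ± 0.08, adjusted p = 0.0016). Cacnb1 fell as well, from 123 to 135 to 58.1 to 87.7 (-0.89 ± 0.19, adjusted p = 0.0020), while Cacnb2 rose from 46.3 to 65.7 to 77.4 to 105 (0.66 ± 0.21, adjusted p = 0.022). The calls of Cacna2d1 and Cacnb2 were lost with single libraries left out, Cacnb2 without replicate 2 or 3 of Rnf40+/+ or replicate 2 of Rnf40-/- and Cacna2d1 without replicate 3 of Rnf40+/+ or replicate 1 or 2 of Rnf40-/-. Cacng7 was at 466 to 543 and 405 to 448 and was not called (adjusted p = 0.054).

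Accessory subunits of sodium channels are single-span proteins with an immunoglobulin fold that modulate the pore and also act in cell adhesion. Scn3b (chr9:40076801-40099203) rose with the lowest adjusted p of all channel genes. It stood at 155, 169 and 176 normalized counts in Rnf40+/+ and at 888, 864 and 929 in Rnf40-/- libraries, 5.35-fold by the means (log2 fold change 2.41 ± 0.09, adjusted p = 7.63e-09), and ranged from 2.35 to 2.46 over all alternatives. Scn4b (chr9:44946520-44962235), on the same chromosome, stood at 15.5, 21.4 and 7.19 against 71.4, 51.1 and 82.1 (2.23 ± 0.37, adjusted p = 4.10e-04). Scn2b stayed at 6.61 to 17.3 and was not tested.

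Most sodium channel pores had few reads, and 3 reads correspond to 2.40 to 3.58 normalized counts. Only Scn2a1 and Scn7a of 11 pores were tested. Scn2a1, a pore of central neurons, went from 77.6, 64.2 and 57.5 to 53.0, 37.6 and 35.9 normalized counts (log2 fold change -0.66 ± 0.23, adjusted p = 0.036), and the call was lost without 4 of the 6 libraries, namely replicates 1 and 2 of Rnf40+/+ and 2 and 3 of Rnf40-/- (adjusted p = 0.0756 to 0.116). The table also lists Scn2a, an alternative symbol of the same gene, at 0 to 3 reads, so that its reads may be split. Scn7a was at 3.19 to 12.2 and 12.3 to 14.3 and was not called. Scn8a stood at 63.3, 7.14 and 3.19 in Rnf40+/+ and at 2.04, 10.4 and 2.83 in Rnf40-/-, and Scn3a at 25.1, 2.04 and 0.80 against 7.14, 3.13 and 15.1. In both genes replicate 1 of Rnf40+/+ was the highest library. Without it the genotypes overlapped for Scn8a, while the other Rnf40+/+ libraries lay below every Rnf40-/- library for Scn3a, at 1 and 2 reads.

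Of the genes that encode no subunit, Kcnq1ot1, the antisense RNA that silences its imprinted neighbours in cis, rose and was at 1189, 899 and 1088 normalized counts in Rnf40+/+ and 1537, 1500 and 1119 in Rnf40-/-, with overlapping groups (log2 fold change 0.38 ± 0.13, adjusted p = 0.026). Its call was lost without replicate 2 of Rnf40+/+ and without replicate 1 or 2 of Rnf40-/-. The host gene Kcnq1 had at most 4 reads in each library. Kcnq1ot1 had no mm9 annotation here, so an exon overlap of the pair was not measured. Reads in exons shared with a gene on the other strand cannot be told apart unless counting used strand, which is not given in the sources used here. This applies to Kcnh7, Cacna1h, Cacna1a (435 bases with Gm16183) and Cacnb1 (80 bases with Gm11629). It also applies to Cacnb2 (253 bases with Gm10849 and 236 with Gm13269) and Kcnq5 (237 bases with Gm16705). Kcnrg was at 0 to 10.2 and was not tested.

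Ion channel genes outside the symbol rule (TRP, chloride, store-operated, HCN and intracellular release channels, 104 in the table) were counted in the same fit. Of 64 tested, 19 were higher (29.7%, beside 23.3% of all genes tested) and 16 lower (25.0%, beside 24.1%). A log2 fold change of 1 was passed by 5 upwards (7.81%, beside 5.13%) and 2 downwards (3.12%, beside 5.72%). The largest rise was that of Trpm6, a magnesium channel, from 8.42 to 128 normalized counts by the means (log2 fold change 3.79). The sodium leak channel Nalcn rose from 9.51 to 54.6 (2.54), and the cation channel Trpv2 fell from 131 to 52.5 (-1.32).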

How the data were processed

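The table holds 1 value per gene for 3 Rnf40+/+ and 3 Rnf40-/- MEF libraries, made from total RNA with a directional kit. By their methods, the authors aligned to the UCSC mm9 transcriptome and normalized with DESeq, and the deposited signal is reads divided by 1 size factor per library (0.837, 0.981 and 1.25 for Rnf40+/+, and 0.981, 0.958 and 1.06 for Rnf40-/-). The submitters' processing notes name Bowtie2 (2.1.0) and DESeq (1.14.0). The counting tool and its strand setting are not given in the sources used here. In every library 100% of positive values were whole reads (tolerance 0.01).

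Genotypes were compared with limma (3.58.1, eBayes with trend) on log2(normalized count + 1), which understates changes of low genes, without covariates, over 16378 genes that passed filterByExpr of edgeR (4.0.16). A gene was called at a Benjamini-Hochberg adjusted p under 0.05 over all of them. With 3 libraries against 3, an exact permutation test cannot go below 0.10, so none was run. Alternatives were upper-quartile and TMM normalization, edgeR's quasi-likelihood test, the Wald test of DESeq2 (1.42.0), no filter beyond 1 read, a mean above 15, pseudocounts of 0.1 and 10, a replicate block and each library left out. The tests were tried on simulated data in R (4.3.3).

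Levels per kb use the longest GENCODE vM1 transcript, since the RefSeq table gives no transcript lengths, and 134 of the 136 genes had an mm9 annotation. Counting intervals cover counting error only. The genes named with values are those called with a log2 fold change above 1 or below -1 and no overlap, the highest gene per kb in each type, Rnf40 and, of the other called genes, the 2 with the lowest adjusted p in each direction, and 2 genes are not reported here. Values of further called and uncalled genes, and the count of genes that stand apart in 1 library, were chosen after they were seen. Members and lists were chosen with earlier results of these data known.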

Additional observations from a re-analysis of the deposited data

How the results depend on the processing

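Over 15 alternatives, the number of channel genes called ranged from 22 to 32, against 28, and no called gene was called in the opposite direction. Of the 28, 18 were called in the same direction under every alternative and 20 with each library left out. With a mean above 15, a minimum that the study also set, Kcne1l, Kcnh7 and Kcnd1 were lost. With 1 library left out, 3 to 6 channel genes were lower by a log2 fold change of over 1 (5 with all libraries, 3 without replicate 3 of Rnf40-/-), and 10 to 14 of the other channel genes were lower (16 with all). Fewer samples enter these fits. With 1 library left out, the log2 fold change of Kcnk2 ranged from -0.037 (without replicate 3 of Rnf40+/+) to 0.16 and that of Kcnma1 from -2.21 to 0.049 (without replicate 1 of Rnf40+/+), and Kcnma1 was at -2.79 with edgeR (adjusted p = 0.0402). With DESeq2, Scn2a1 was not called (adjusted p = 0.0783). The median log2 fold change of channel genes was 0.17 with upper-quartile normalization and -0.02 with a mean above 15. The cause of these shifts was not tested.

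No pairing of the samples by replicate number was seen, although correlations over 3 libraries per genotype cannot exclude a shared embryo or culture. Deviations of same-numbered libraries correlated with r = 0.012, 0.017 and 0.021 over genes, and not every library correlated best with its own number. With the replicate block, 16 channel genes were higher and 16 lower, with Cacng7, Kcnma1 and Kcns3 among those added (adjusted p = 0.0321 for Kcnma1). Depth limits the low genes: 75 of 136 could not be tested, and the rises of Kcne1l and Kcnh7 rest on 1 to 8 reads in Rnf40+/+ libraries.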
